A study of Mus musculus with 6 samples.

Results

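The genes described here mark mesoderm and endoderm, the inner germ layers that the embryo forms at gastrulation. Several of the endoderm genes mark the extraembryonic endoderm, which arises earlier, in the blastocyst. All were followed in mouse embryonic stem cells with and without knockdown of Trim71, an RNA-binding ubiquitin ligase of early embryos. The list held 35 genes, 19 of mesoderm and 16 of endoderm, chosen by name with earlier results of these data known. A gene was measured where a probe set, the group of probes that reads a transcript, carried its symbol and no other. This gave 36 probe sets for 34 genes, 18 of mesoderm and all 16 of endoderm, out of 19937 genes on the array. The mesoderm factor T (brachyury) had no such probe set and was not analysed here. Foxf1 and Dab2 had 2 probe sets each, and the brighter was used.

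Both groups were cultured mouse embryonic stem cells, with 3 arrays each. The knockdown cells are labelled Trim71 KD, and the protocol gives a mixture of 3 siRNAs or a non-targeting siRNA, a lipid reagent and harvest after 72 h. The controls carry the label wild-type and are named parental in the title, and the labels do not settle if the non-targeting siRNA was given to them. The cell line, passage and presence of feeder cells are not given in the labels, nor is it said whether the replicates were separate cultures, so p-values measure the spread between these arrays, which may be technical.

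At gastrulation, cells of the epiblast enter the primitive streak under Nodal, Wnt and BMP signals, lose epithelial contacts and become mesoderm or definitive endoderm. T-box and basic helix-loop-helix factors set mesoderm fates, while Gata, Sox and Fox factors set endoderm fates. An earlier, extraembryonic endoderm arises beside the epiblast in the blastocyst and later makes serum proteins and basement membrane. Embryonic stem cells in self-renewing culture usually hold these programmes at a low level, with occasional cells that express single factors such as Gata6.

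Trim71 itself fell from a log2 signal of 10.48, 10.50 and 10.51 on control arrays 1 to 3 to 9.00, 8.95 and 8.98 on the knockdown arrays. The log2 fold change was -1.52 ± 0.045 (SE, adjusted p = 2.8e-05 in limma). An exact permutation test (two-sided) gave p = 0.1, the lowest value possible with groups of 3. All 19 measured markers of pluripotent stem cells, with a median log2 signal of 11.02, were brighter than the range of dim receptor genes defined below. Knockdown array 3 stood apart, with an upper quartile of 8.42 against 8.32 to 8.35 on the other arrays and the largest deviation from its group mean. In limma, 5.53% of all genes passed an adjusted p of 0.05, 675 with higher and 428 with lower knockdown values. Scaling moved that split, to 779 against 763 when quantile normalization was repeated and to 527 against 616 when each array was centred on its median.

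Signals of the lineage genes lay mostly above a range of dim probe sets and mostly below the median of all genes. Olfactory and vomeronasal receptor genes, which belong to sensory neurons, served as a measured range of dim signals, and 95% of these 1190 genes lay below a log2 level of 5.34, with a median of 3.63. The mesoderm genes had a median log2 level of 6.03 over all arrays and ranged from 4.04 for the limb and heart factor Tbx5 to 7.49 for the repressor Snai1. The endoderm genes had a median of 6.27 and ranged from 4.27 for the plasma carrier Ttr to 11.35 for the matrix glycoprotein Sparc. The median of all genes was 6.70, and 4 of 18 mesoderm and 5 of 16 endoderm genes lay above it. Sparc and Gpc3, a cell-surface glypican, stood at the 98.1 and 89.2 percentiles of all genes, and no other listed gene exceeded the 60.0 percentile. Probe sets differ in brightness at equal transcript levels, so this order describes signals and not amounts of RNA.

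Of the measured genes, 13 of 18 in the mesoderm list and 13 of 16 in the endoderm list exceeded the receptor range, against 70.2% of all genes. The mesoderm genes within it were Mesp1, Snai2, Meox1, Tbx5 and Isl1. In the endoderm list they were Sox17, Afp and Ttr. The deposited values hold no detection call, and a change of a transcript near this range is understated on the array.

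**Figure D1:**
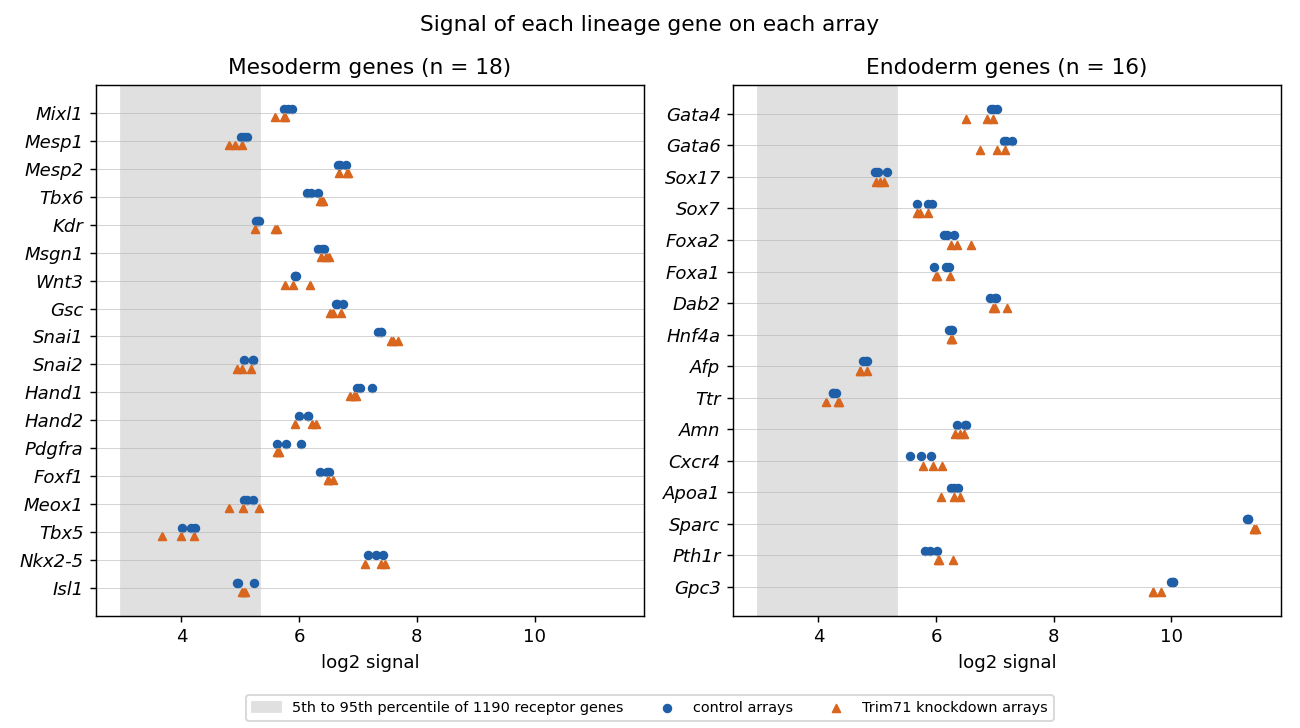
Log2 signal (x axis) of 18 mesoderm and 16 endoderm genes (rows) on each of 3 control arrays (circles) and 3 Trim71 knockdown arrays (triangles), with the 5th to 95th percentile of 1190 receptor genes shaded. Most genes lie between 4 and 7.5 in both groups, and Sparc and Gpc3 are far brighter.

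Changes between the groups were small, and the share of these genes called was near that of all genes. Of the 34 genes, 1 rose and 1 fell at an adjusted p under 0.05 in limma, Snai1 and Gpc3, against 5.53% of all genes called. The mesoderm genes had a median log2 fold change of 0.012 and the endoderm genes one of -0.017, beside 0.005 for all genes. An unadjusted p under 0.05 was reached by 2 mesoderm and 3 endoderm genes, where 19.0% of all genes reached it. Single log2 fold changes ran from -0.28 to 0.23, and 17 were above 0 and 17 below. The 95% confidence intervals of all 34 genes lay between -0.47 and 0.46, so each lay within a 1.5-fold change of the array signal in either direction. The groups did not overlap for 6 genes, Snai1, Tbx6, Sparc and Pth1r with higher and Hand1 and Gpc3 with lower knockdown values, against 25.5% of all genes.

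**Figure D2:**
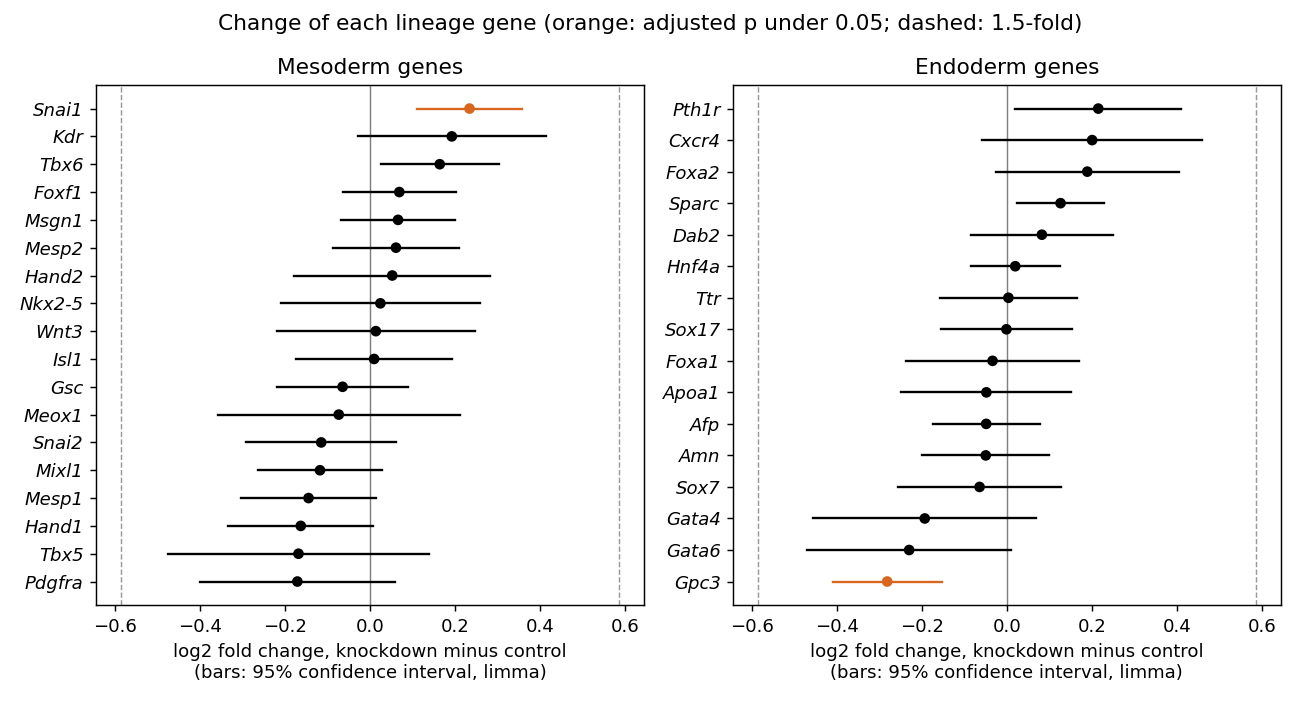
Log2 fold change (x axis, knockdown minus control) of each mesoderm and endoderm gene with its 95% confidence interval from limma, with dashed lines at a 1.5-fold change and the genes at an adjusted p under 0.05 in orange. Snai1 at 0.23 and Gpc3 at -0.28 are the genes called, and no interval reaches a dashed line.

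Among the mesoderm genes, Snai1 encodes a zinc-finger repressor of E-cadherin that acts as streak cells leave the epithelium. Its log2 signal was 7.40, 7.40 and 7.34 on control arrays 1 to 3 and 7.55, 7.59 and 7.69 on knockdown arrays 1 to 3. Every knockdown value was above every control value, and knockdown array 3 was the highest. The level went from 7.38 ± 0.035 (SD, n = 3) to 7.61 ± 0.068 (SD, n = 3), a rise of 17.6% with a log2 fold change of 0.23 ± 0.054 SE (limma, adjusted p = 0.049). The call sat at the threshold. It was lost with any of the 6 arrays left out, at adjusted p-values of 0.0615 (without knockdown array 3) to 0.165, with arrays centred on their medians (0.0601), without variance moderation (0.101) and with all probe sets tested (0.123), while the log2 fold change stayed between 0.20 and 0.26. Over all alternatives its adjusted p ran from 0.0113 to 0.165.

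The related repressor Snai2, which takes over in neural crest and later mesenchyme, did not pass the test. It read 5.21, 5.06 and 5.22 in the controls and 4.94, 5.03 and 5.18 in the knockdown, with a log2 fold change of -0.11 ± 0.076 SE (adjusted p = 0.49 in limma). These values overlap and lie within the range of dim receptor genes. Snai1 and Snai2 were not tested against each other.

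Early streak genes showed no change past the threshold. Mixl1, a homeobox factor of the streak, had a log2 fold change of -0.12, and Gsc, a homeobox factor of the organizer, one of -0.06. Wnt3, the ligand needed to start the streak, was at 0.01, with control values of 5.92 to 5.94 and wider knockdown values of 5.76 to 6.18. Mesp1, which marks the earliest cardiac mesoderm, read 5.11, 5.06 and 5.02 in the controls and 4.91, 5.04 and 4.80 in the knockdown (log2 fold change -0.14 ± 0.068 SE, adjusted p = 0.311 in limma). Its neighbour Mesp2, a segmentation factor, was at 0.06 from a level of 6.71.

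In paraxial mesoderm, which forms the somites, Tbx6 specifies mesoderm over neural fate. Tbx6 read 6.20, 6.32 and 6.13 in the controls and 6.39, 6.35 and 6.41 in the knockdown. The groups did not overlap, but the log2 fold change of 0.16 ± 0.059 SE did not pass the adjustment (adjusted p = 0.183 in limma). The presomitic factor Msgn1 was at 0.07 and the somite factor Meox1 at -0.07. The latter had the widest knockdown values of these, from 4.80 to 5.32.

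In lateral plate and heart mesoderm, Hand1, a helix-loop-helix factor that trophoblast also uses, read 6.98, 7.04 and 7.23 in the controls and 6.93, 6.87 and 6.97 in the knockdown. These ranges did not overlap by a small margin, and the log2 fold change was -0.16 ± 0.073 SE (adjusted p = 0.286 in limma). Its relative Hand2 was at 0.05. Nkx2-5, a heart factor and the brightest mesoderm gene after Snai1, was at 0.02 with overlapping values of 7.16 to 7.42 and 7.12 to 7.45. Foxf1, a factor of splanchnic mesoderm, was at 0.07 with its brighter probe set and 0.0006 with the other. Isl1, which marks progenitors of the heart's later field, was at 0.01, and Tbx5 at -0.17 with the widest confidence interval of the mesoderm genes, -0.47 to 0.14.

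Receptors of mesoderm pointed in no common direction. Kdr, the VEGF receptor of blood and vessel progenitors, read 5.31, 5.31 and 5.27 in the controls and 5.26, 5.59 and 5.62 in the knockdown. Knockdown array 1 lay just below the controls and the other 2 arrays above them. The log2 fold change was 0.19 ± 0.095 SE (adjusted p = 0.336 in limma). Without knockdown array 1 it was 0.31 with an adjusted p of 0.0368, the sole alternative that called it, and its adjusted p over all alternatives ran up to 0.596. Pdgfra, a growth factor receptor of mesoderm and extraembryonic endoderm, read 5.78, 5.62 and 6.04 in the controls and 5.65, 5.64 and 5.63 in the knockdown, so that control array 3 was the high value (log2 fold change -0.17 ± 0.099 SE, adjusted p = 0.425).

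Among the endoderm genes, Gpc3 fell. It encodes a heparan sulfate proteoglycan that binds growth factors, restrains Hedgehog signals and is abundant in visceral endoderm and fetal liver. Its log2 signal was 10.02, 10.03 and 9.98 on control arrays 1 to 3 and 9.69, 9.68 and 9.82 on knockdown arrays 1 to 3. Every knockdown value was below every control value, and knockdown array 3 lay nearest to the controls. The level went from 10.01 ± 0.023 (SD, n = 3) to 9.73 ± 0.078 (SD, n = 3), a log2 fold change of -0.28 ± 0.055 SE (limma, adjusted p = 0.0294), which is a signal 1.22-fold lower. Without knockdown array 3 the log2 fold change was -0.33 (adjusted p = 0.0143). Without any of the other 5 arrays, the call was lost at adjusted p-values of 0.0821 (without knockdown array 1) to 0.128 (without control array 1), as it was without variance moderation (0.0836) and with all probe sets tested (0.0892). Over all alternatives the adjusted p ran from 0.00086 to 0.128.

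Sparc, a calcium-binding glycoprotein abundant in parietal endoderm and in fibroblasts, was the brightest member. It read 11.28, 11.30 and 11.30 in the controls and 11.41, 11.43 and 11.41 in the knockdown. These groups were tight and apart, but the log2 fold change of 0.13 ± 0.044 SE did not pass (adjusted p = 0.164 in limma). It passed among bright genes only (adjusted p = 0.0419), with a trended and robust prior (0.00433) and without variance moderation (0.0343). In the other alternatives it did not pass, at adjusted p-values of up to 0.409.

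**Figure D3:**
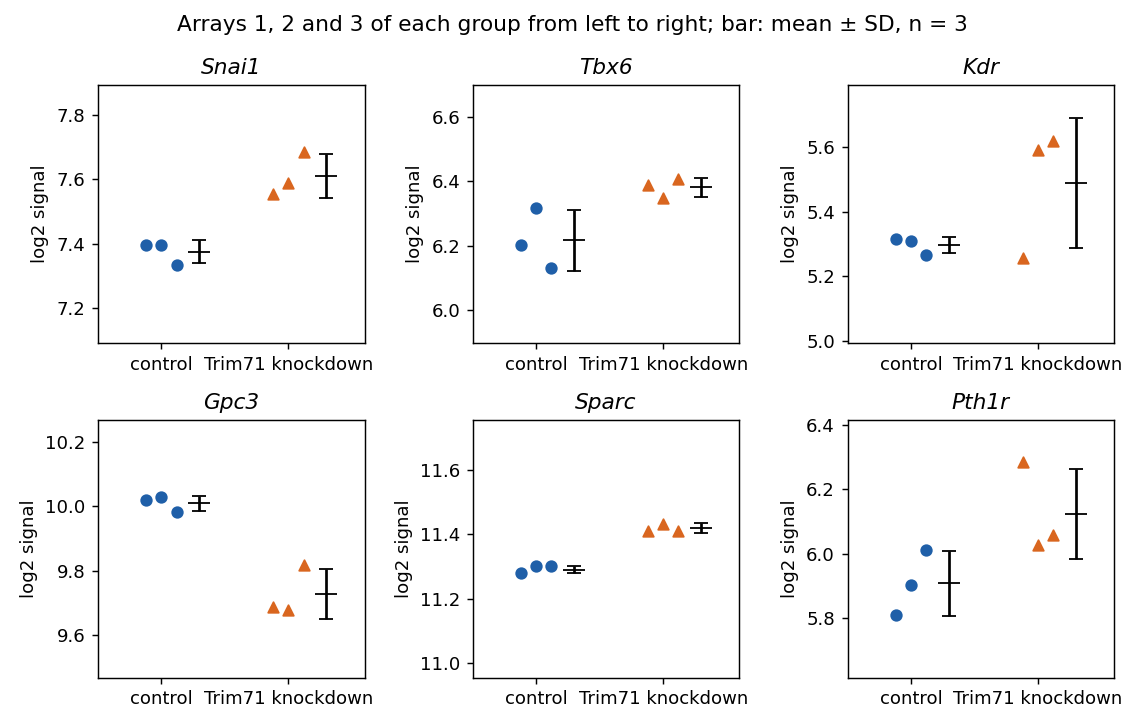
Log2 signal (y axis, each panel spanning 0.8) of Snai1, Tbx6, Kdr, Gpc3, Sparc and Pth1r on the 3 control and 3 knockdown arrays, with the mean ± SD beside each group. The groups are apart for all but Kdr, whose knockdown array 1 lies just below the controls and the other 2 above them. Hand1 and Mesp1, with a smaller p than Kdr in limma and lower knockdown means, are not shown.

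Pth1r, the receptor for parathyroid hormone and its related protein and an early gene of parietal endoderm, read 5.81, 5.90 and 6.01 in the controls and 6.28, 6.03 and 6.06 in the knockdown. Only knockdown array 1 was well above the controls, and the log2 fold change of 0.21 ± 0.084 SE did not pass (adjusted p = 0.218 in limma). Cxcr4, the chemokine receptor of definitive endoderm, was at 0.20 with an adjusted p of 0.398 and overlapping groups.

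The transcription factors of endoderm did not pass the test in either direction. Gata6, which sets primitive endoderm fate in the blastocyst, read 7.16, 7.29 and 7.20 in the controls and 6.75, 7.17 and 7.03 in the knockdown. Knockdown array 1 was the low value, and array 2 overlapped the controls (log2 fold change -0.23 ± 0.10 SE, adjusted p = 0.283 in limma). Its relative Gata4 was at -0.19 ± 0.11 SE (adjusted p = 0.428), where knockdown array 3 at 6.51 stood below 5 values of 6.87 to 7.03. Sox17, which acts after the Gata factors, was at -0.001 with a 95% confidence interval of -0.16 to 0.15, and Sox7 was at -0.06. Foxa2, a pioneer factor of definitive endoderm, was at 0.19 (adjusted p = 0.331) with knockdown array 1 the highest at 6.59, while Foxa1 was at -0.03. Hnf4a, a liver and visceral endoderm factor, had the narrowest spread of these, 6.21 to 6.27 in the controls and 6.26 to 6.28 in the knockdown, for a log2 fold change of 0.02 ± 0.045 SE.

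Effector genes of visceral endoderm did not pass the test. Afp, the fetal serum protein, was at -0.05, Ttr at 0.004, the lipoprotein gene Apoa1 at -0.05, and Amn, a subunit of the endocytic cubilin receptor, at -0.05. Dab2, an endocytic adaptor of primitive endoderm, was at 0.08 from a level of 6.98 with its brighter probe set and at -0.11 with the other, which lay at 3.44. Neither Dab2 probe set passed the test.

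Markers of other cell types were read on the same arrays, and their summed signals, which the brightest probe sets dominate, did not overlap between the groups. Among single genes, 25.5% of all genes did not overlap, but this is not the share for sums over several genes, which was not computed. The part of array scaling in these sums was not tested. The 19 fibroblast markers summed to 11.06 to 11.20 (log2 of the sum) in the controls and 10.89 to 10.92 in the knockdown, but their median log2 fold change was 0.007. Acta2 at -0.70 and Tagln at -0.34 were the 2 called, against 5.53% of all genes called in limma. Acta2 kept the call with each array left out in turn, while Tagln reached an adjusted p of 0.088. The 15 trophectoderm markers, Hand1 among them, summed to 12.34 to 12.48 and to 12.52 to 12.67, with a median of 0.07. Tfap2c and Fgfr2 were the 2 called, against 5.53% of all genes. Both were higher and kept the call with each array left out. The 18 neural markers summed to 11.29 on each control array and to 11.16 to 11.21 in the knockdown, with a median of -0.017. Pax6 and Nes were the 2 called, again against 5.53% of all genes. Pax6 was lower and kept the call with each array left out. Nes was higher at an adjusted p of 0.0497 in limma and lost the call with any array left out, at up to 0.185. The 19 pluripotency markers summed to 15.48 to 15.51 and to 15.55 to 15.61, with a median of 0.07 and 4 higher and 1 lower, against 3.39% and 2.15% of all genes. Their 5 calls became 0 without control array 1, 2 or 3 or knockdown array 2, and leaving out knockdown arrays 1 and 3 gave 2 and 4 calls. Of the fibroblast, trophectoderm and neural markers, 13, 12 and 13 lay above the receptor range. The part of these differences in the values of Snai1, Gpc3, Sparc and Hand1 was not tested. In bulk samples, fewer cells of a type and less RNA per cell cannot be told apart.

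The promoters of the called genes, and of the brightest and the dimmest member with an entry, are shown because they differ in CpG content, which is high in many promoters of developmental regulators and low in many of tissue-restricted genes. Each runs 5′ to 3′ on the gene's strand from 250 bases before to 50 after the start in RefSeq (GRCm38.p6), with CpG dinucleotides in capitals. Snai1 lies at chr2:167537945-167538244 (plus strand), Gpc3 at chrX:52613925-52614224 (minus), Sparc at chr11:55420031-55420330 (minus) and Afp at chr5:90490464-90490763 (plus).
Snai1: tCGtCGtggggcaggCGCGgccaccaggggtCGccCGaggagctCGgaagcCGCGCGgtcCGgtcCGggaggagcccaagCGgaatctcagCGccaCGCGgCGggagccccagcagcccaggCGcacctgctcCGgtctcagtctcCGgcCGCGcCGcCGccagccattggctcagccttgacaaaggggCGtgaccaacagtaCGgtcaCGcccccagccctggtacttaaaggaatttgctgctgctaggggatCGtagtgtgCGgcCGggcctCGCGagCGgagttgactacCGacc
Gpc3: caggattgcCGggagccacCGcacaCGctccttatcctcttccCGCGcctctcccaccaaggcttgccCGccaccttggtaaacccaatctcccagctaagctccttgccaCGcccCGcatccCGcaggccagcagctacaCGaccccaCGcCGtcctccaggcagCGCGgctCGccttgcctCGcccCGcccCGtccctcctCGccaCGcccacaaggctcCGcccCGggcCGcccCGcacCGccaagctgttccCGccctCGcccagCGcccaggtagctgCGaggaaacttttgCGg
Sparc: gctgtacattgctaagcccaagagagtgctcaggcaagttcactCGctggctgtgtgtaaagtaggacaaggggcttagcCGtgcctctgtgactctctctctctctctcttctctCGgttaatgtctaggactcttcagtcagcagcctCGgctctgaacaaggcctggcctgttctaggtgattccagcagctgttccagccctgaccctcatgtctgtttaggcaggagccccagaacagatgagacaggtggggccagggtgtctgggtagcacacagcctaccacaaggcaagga
Afp: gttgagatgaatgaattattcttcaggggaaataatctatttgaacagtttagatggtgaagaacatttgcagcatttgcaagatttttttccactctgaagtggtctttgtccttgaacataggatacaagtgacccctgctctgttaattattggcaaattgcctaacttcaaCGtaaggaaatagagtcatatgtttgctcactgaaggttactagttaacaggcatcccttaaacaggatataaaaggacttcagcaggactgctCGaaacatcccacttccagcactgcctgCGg
The Snai1 and Gpc3 promoters held 34 and 30 CpG dinucleotides, more than 92.5% and 88.5% of 27025 promoters of the same length. The Sparc promoter held 4 and the Afp promoter 3, against a median of 7, so the brightest and a very dim member were alike in this.

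RefSeq promoters were matched for 24 of the 35 genes, 13 of mesoderm (T included) and 11 of endoderm, taking the entry listed earliest for a gene. The mesoderm promoters held a median of 17 CpG dinucleotides, from 4 in Mesp1 and Msgn1 to 37 in Isl1. The endoderm promoters held a median of 5, with 2 to 5 in Dab2, Afp, Hnf4a, Apoa1, Sparc and Pth1r and 12 to 30 in Foxa2, Amn, Cxcr4, Foxa1 and Gpc3. CAGGTG, the E-box that Snai factors bind, was searched on both strands and found in 3 of 13 mesoderm promoters (Mesp1, T and Snai1) and in 3 of 11 endoderm promoters (Apoa1, Sparc and Foxa1), and 20.0% of all promoters held it. TATAAA on either strand was found in 2 and 2, Tbx6, Gsc, Afp and Cxcr4, and in 14.2% of all promoters. The motif AGATAA of Gata factors was found in Hand2, Isl1, Dab2 and Hnf4a and in 11.4% of all. Each motif was counted separately, and a promoter could hold more than 1 of them. A match describes letters and does not show binding.

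Other genes of both lineages were taken from lists of textbook genes, chosen with earlier results of these data known, so their counts only describe. Of 39 further streak and mesoderm genes, 2 were called in limma, both lower, against 5.53% of all genes called in either direction. Their median log2 fold change was -0.06. Tbx20, a T-box factor of the heart, was at -0.40 ± 0.071 SE (adjusted p = 0.0219), from 6.03, 6.18 and 6.23 in the controls to 5.77, 5.65 and 5.83 in the knockdown. Apela, which encodes a peptide hormone of the apelin receptor and was bright at 11.62 to 11.66 in the controls, was at -0.27 ± 0.051 SE (adjusted p = 0.0273). Of 41 further endoderm genes, 2 were called, both lower, with a median of -0.01, again against 5.53% of all genes called. These were Lrp2, the endocytic receptor megalin that works beside cubilin and Amn, at -0.25, and Lama1, a laminin chain of the basement membrane, at -0.29. Each of these 4 genes lost the call in at least 4 of the 6 fits with an array left out, at adjusted p-values of up to 0.126.

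Signals that act at gastrulation were called for 5 higher and 3 lower of 38, against 3.39% and 2.15% of all genes. Their median log2 fold change was near 0. Lefty1, an antagonist of Nodal, was at -0.80, and Pcsk6, a protease that matures Nodal, at -0.34. Fgf10, a mesenchymal growth factor, was at -0.47 from a level of 5.87, near but above the range of dim receptor genes. Lef1, an effector of Wnt signals, was at 0.38, Fgf4 at 0.31, the receptor genes Fgfr1 and Bmpr2 at 0.30 and 0.25, and Fgf5 at 0.27. Nodal itself was at 0.10 (adjusted p = 0.35), Lefty2 at -0.53 (adjusted p = 0.0542) and Smad3 at 0.27 (adjusted p = 0.0515), none of them called. Of the 8 called, Lefty1 and Fgf10 kept the call with each array left out in turn.

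The epithelial and mesenchymal genes, among which Snai factors act, were called for 3 higher and 2 lower of 28, against 3.39% and 2.15% of all genes. The splicing regulators of epithelia Esrp1 and Esrp2 rose by 0.75 ± 0.051 SE and 0.51 ± 0.096 SE, and the epithelial factor Grhl2 rose by 0.57 ± 0.051 SE. Vim, the intermediate filament of mesenchyme, was at -0.24 and the matrix protease gene Mmp9 at -0.38. Cdh1, the E-cadherin gene that Snai1 is known to repress, read 10.97, 11.01 and 11.01 in the controls and 11.12, 11.18 and 11.26 in the knockdown. It was at 0.19 ± 0.052 SE and did not pass (adjusted p = 0.093 in limma). Cdh2, the N-cadherin gene, was at -0.18 (adjusted p = 0.123). The median log2 fold change of the 28 genes was 0.017, and a link of Snai1 to the called genes was not tested. Esrp1 and Grhl2 kept the call with each array left out in turn. Mmp9 kept it in 5 of these 6 fits, Esrp2 in 2 and Vim in 1.

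Relatives, ligands and receptors of the listed genes were called for 4 higher and 4 lower of 37, against 3.39% and 2.15% of all genes. Vegfa, a ligand of Kdr, was at 0.53, and Pdgfc, a ligand of Pdgfra, at 0.50, while neither receptor gene passed. Gata2, a relative of Gata4 and Gata6, was at 0.38 and the receptor gene Kit at 0.38, with its ligand gene Kitl at -0.35. Gpc6, of the same glypican family as Gpc3, was at -0.39 ± 0.055 SE, from 7.18, 7.24 and 7.20 to 6.88, 6.73 and 6.83, and lost the call in 1 of the 6 fits with an array left out. Dab1, a relative of Dab2 that acts in neurons, was at -0.23, and Lrp2 stood in this list too. Counted once, 172 of these other genes were measured, and 12 were higher and 12 lower, against 3.39% and 2.15% of all genes. The lists were chosen with earlier results of these data known, so this difference is no test of enrichment. With each array left out in turn, 7 of the 24 kept the call, Lefty1, Fgf10, Esrp1, Grhl2, Gata2, Pdgfc and Vegfa.

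**Figure D4:**
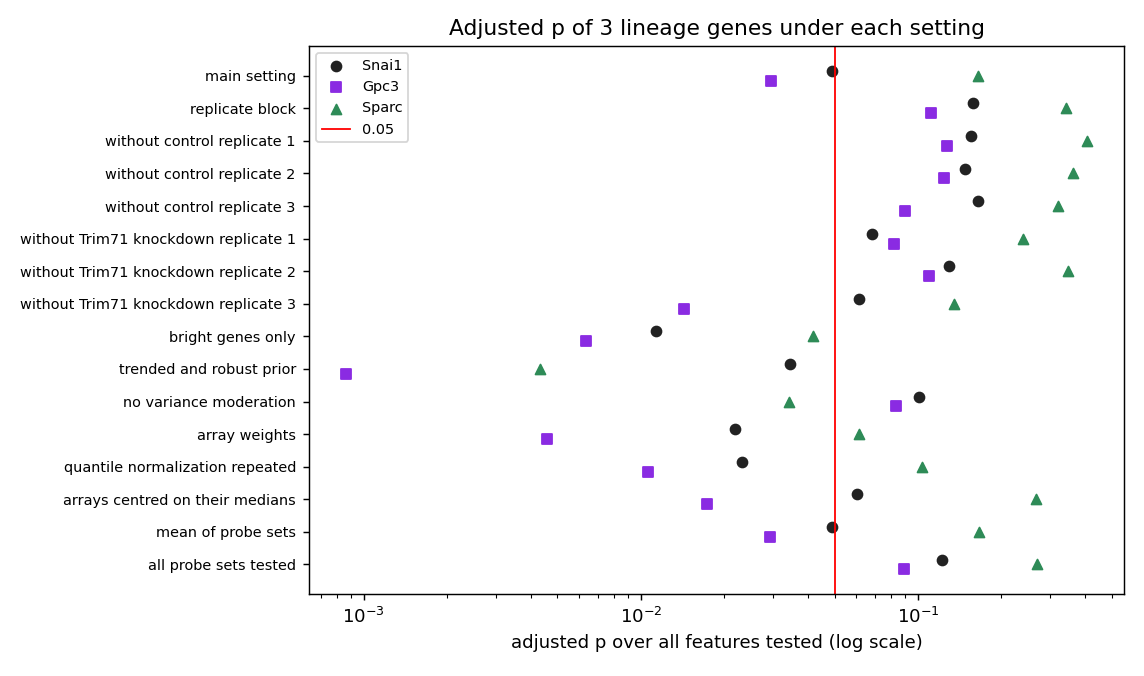
Adjusted p (x axis, log scale) of Snai1, Gpc3 and Sparc in the main setting and under each alternative (rows), with the threshold of 0.05 as a red line. Snai1 lies just under the line in the main setting and above it whenever an array is left out, and Gpc3 lies under it without knockdown array 3 and above it without any other array.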

How the data were processed

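RNA of 6 samples was measured on single-colour Affymetrix arrays. Amplification started from 100 ng of total RNA with a whole-transcript kit, per the labels' protocols. The deposited values are log2 expression per probe set, made with RMA and affy per the submitters' processing notes (versions: not given in the sources used here). Because RMA quantile normalizes, shifts common to most genes are largely removed. The array medians still ran from 6.26 on control array 2 to 6.31 on knockdown array 3. The number of arrays limits the precision.

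Of 34760 probe sets, 21640 had 1 symbol in GEO's platform annotation, 1321 had several and 11799 are unnamed here. The brightest per gene was kept, without an intensity filter. Group was the only term of the limma 3.58.1 fit (R 4.3.3, lmFit and eBayes), with Benjamini-Hochberg adjustment over 19937 genes and a threshold of 0.05 on the adjusted p for a call. Intervals and SEs come from this fit. Python 3.11.15 with pandas 2.3.3, scipy 1.17.1 and matplotlib 3.10.9 made tables and plots. The listed genes and the other lists were chosen with earlier results of these data known. All 35 genes could be named. Described in full were called genes and the 4 of each lineage with the smallest p or highest level. In other lists, called genes and 2 more by p could be named, and Kdr, Pdgfra, Cxcr4, Gata4, Nodal, Cdh1, Cdh2 and others were added after their values were seen.

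Tested on simulated data with 200 of 19937 genes changed, the fit recovered 16.0% of genes raised 1.2-fold and 74.0% raised 1.5-fold, and 1.48% of its calls were unchanged genes. Alternatives tried were a replicate block, leaving out each array, bright genes only, a trended and robust prior, no moderation, array weights, repeated quantile normalization, median centring, the mean of probe sets, all probe sets tested and an adjusted p under 0.01.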

Additional observations from a re-analysis of the deposited data

How the results depend on the processing

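The count of called mesoderm genes (1, Snai1) became 0 with the replicate block, without variance moderation, with arrays centred on their medians, with all probe sets tested and at an adjusted p under 0.01, and ranged from 0 to 1 with an array left out, where the 1 was Kdr. The count of called endoderm genes (1, Gpc3) became 0 with the replicate block, with all probe sets tested and at an adjusted p under 0.01, 2 (Gpc3 and Sparc) among bright genes only and with a trended and robust prior, and 0 to 1 with an array left out. Without moderation the 1 called was Sparc. With all probe sets tested more features share the adjustment, and with the block fewer degrees of freedom remain. The cause of a lost or gained call was not tested for any setting. Same-numbered arrays did not deviate together (correlations of -0.017, -0.15 and -0.241, none the highest for its number), so the replicate block rests on a shared number alone, and it called 171 genes higher and 108 lower. Over all genes the counts ran from 148 to 603 higher and 101 to 699 lower with an array left out, and from 152 to 1213 and 94 to 1058 under the other alternatives, against 675 and 428. The other lists ran from 0 to 5 calls for mesoderm, 0 to 7 for endoderm, 2 to 13 for signals, 2 to 10 for epithelial and mesenchymal genes, 3 to 12 for relatives and ligands, 0 to 11 for pluripotency markers, 0 to 3 for fibroblast and for neural markers and 1 to 3 for trophectoderm markers. The pluripotency count was 0 with the replicate block.

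No called value of a listed gene changed sign under any of the 16 alternatives. Of 519 listed-gene values under alternatives, 495 stayed on the same side of the threshold, 20 lost a call and 4 gained one, and 34 values of 11 uncalled genes changed sign. The Trim71 log2 fold change stayed between -1.55 and -1.51. Dim signals limit what the arrays can show, since 8 of 34 genes lay within the range of receptor genes. Changes of about 1.2-fold were mostly missed in simulated data, where fewer genes changed than were called here and spreads were shuffled among genes. The share recovered may therefore differ for the listed genes.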
